A study of Caenorhabditis elegans with 2 samples.

Results

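The JUN-1 peaks described here are those on the X chromosome whose summit lay outside every coding promoter of Caenorhabditis elegans. JUN-1 is the worm Jun protein, and its sites were mapped by ChIP-seq, in which DNA cut from chromatin is pulled down with an antibody and sequenced, in whole L1 larvae of mixed sex. The animals were of strain OP234, genotype unc-119(ed3) III with the transgene insertion wgIs234, which carries jun-1 tagged with eGFP. The group held 2 biological replicates, and no other strain, stage or treatment was measured. A peak was chosen when it was in the deposited list thresholded by the irreproducible discovery rate (IDR), lay on X, and had its summit outside the window from 1000 bp upstream to 200 bp downstream of each annotated start of a protein-coding gene. This rule uses position alone, and it took 238 of the 2305 peaks of the list (10.3%). They are compared with the 212 X peaks inside such windows, called X promoter peaks, and with the 789 autosomal peaks outside them. Coordinates are on ce11, the build also named WBcel235.

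Jun proteins are basic leucine zipper factors that bind DNA as dimers, classically with Fos proteins at the AP-1 element. The worm X chromosome carries a layer of regulation that the autosomes lack. In hermaphrodites a condensin-like dosage compensation complex is loaded at recruitment sites along both X chromosomes and lowers their transcription to match the single X of males. The recruitment sites hold copies of a motif named MEX (motif enriched on X), whose core is GCGCAGGG. Larval peaks far from coding starts can lie in enhancers, in introns, at the start sites of alternative transcripts or at genes of non-coding RNA, and tRNA genes, which RNA polymerase III transcribes, are numerous on the worm X. The files hold no measurement of the dosage compensation complex, of RNA polymerase III or of RNA.

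The tag sits on a transgene and not on the native gene, and whole larvae mix all cell types. Both replicates were called against 1 control alignment, per the deposited notes, and the part of that control in their similarity was not tested. The files give no read counts, so the depth of the libraries and the counting error of a single peak are unknown. The lists held 28101 peaks in replicate 1, 30000 in replicate 2 and 19646 in the list called on both together. With 1 group of 2 libraries and no other condition, no test of a difference between sets of peaks was made. Differences are given in the IDR-thresholded list and in each replicate, and the 95% Wilson intervals of shares cover counting error only.

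Among the 238 peaks the MEX core was present at 15, and most of these were among the strongest. The core was sought as GCGCAGGG on both strands of the 200 bp window centred on the summit. Each copy is shown with 16 bases to either side, read on the strand on which the core reads 5′ to 3′, and the core is in capitals. Peaks are numbered by their signal among the 238, from 1 for the strongest, and letters after a number separate copies in the same window.
Peak 2a, chrX:11094109-11094148, minus strand: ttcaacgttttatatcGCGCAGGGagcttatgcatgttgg
Peak 2b, chrX:11094210-11094249, minus strand: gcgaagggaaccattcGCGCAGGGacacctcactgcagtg
Peak 3, chrX:4209250-4209289, minus strand: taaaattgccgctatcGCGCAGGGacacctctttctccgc
Peak 4a, chrX:6296532-6296571, plus strand: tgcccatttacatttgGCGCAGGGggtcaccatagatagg
Peak 4b, chrX:6296560-6296599, plus strand: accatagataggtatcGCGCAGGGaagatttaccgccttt
Peak 7, chrX:16682156-16682195, minus strand: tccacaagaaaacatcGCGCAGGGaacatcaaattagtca
Peak 8a, chrX:806658-806697, plus strand: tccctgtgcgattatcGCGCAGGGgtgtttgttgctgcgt
Peak 8b, chrX:806734-806773, plus strand: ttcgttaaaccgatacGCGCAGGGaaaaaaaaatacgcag
Peak 11, chrX:2997107-2997146, minus strand: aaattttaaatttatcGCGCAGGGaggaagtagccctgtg
Peak 12a, chrX:8036419-8036458, plus strand: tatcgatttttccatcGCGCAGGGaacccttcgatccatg
Peak 12b, chrX:8036385-8036424, minus strand: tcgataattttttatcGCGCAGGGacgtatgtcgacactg
Peak 14, chrX:5429574-5429613, plus strand: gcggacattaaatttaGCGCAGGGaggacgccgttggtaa
Peak 19, chrX:2364883-2364922, minus strand: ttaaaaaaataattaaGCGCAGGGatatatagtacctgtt
Peak 22, chrX:13514542-13514581, plus strand: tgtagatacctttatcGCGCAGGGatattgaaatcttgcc
Peak 44, chrX:17181349-17181388, minus strand: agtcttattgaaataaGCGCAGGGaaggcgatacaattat
Peak 52, chrX:4395599-4395638, plus strand: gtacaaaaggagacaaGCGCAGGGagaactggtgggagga
Peak 74, chrX:4208723-4208762, plus strand: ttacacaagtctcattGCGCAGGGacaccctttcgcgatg
Peak 194, chrX:2997282-2997321, minus strand: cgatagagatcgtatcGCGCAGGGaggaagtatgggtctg
Peak 237, chrX:1437279-1437318, plus strand: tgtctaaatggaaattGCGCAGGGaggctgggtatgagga

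These 15 peaks carried 19 copies, 10 on the plus and 9 on the minus strand, and 4 of the peaks had 2 copies. The letters beside the core were not even. The base just 3′ of it was A in 17 of the 19 copies, the base just 5′ of it was C in 12, and the base before that was T in 15. The copies lay near the summit, at a median distance of 33 bp and at most 75 bp, with 14 of 19 within 50 bp. In peak 12 the copies are on opposite strands and lie on both sides of the summit. In peak 4 both copies are on the plus strand, 14 bp to each side of it.

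**Figure D1:**
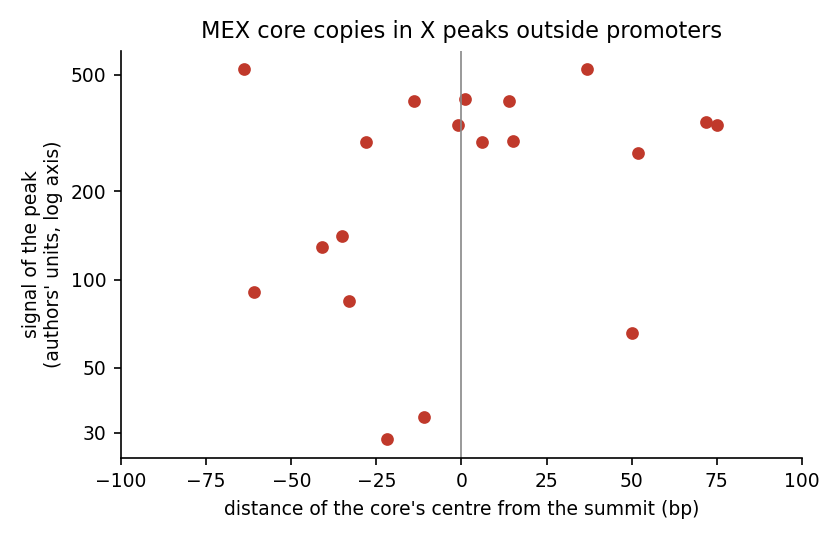
Distance in bp of the centre of each MEX core copy from the summit of its peak (horizontal axis) against the signal of that peak in the IDR-thresholded list (vertical log axis). Each of the 19 points is 1 copy, so peaks with 2 copies appear at 2 distances; 14 copies lie within 50 bp of the summit and none beyond 75 bp.

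The signal is the authors' value per peak, whose scaling is not given in the sources used here. Peak 2 had 309 in replicate 1 and 215 in replicate 2, and 522 in the IDR-thresholded list. It lies at chrX:11093959-11094397, between genes, 3993 bp downstream of the start of W02H3.3. Peak 3 had 247 in replicate 1 and 169 in replicate 2 and lies 1784 bp upstream of F20B6.9, at chrX:4209107-4209455 (signal 413). A weaker core-bearing peak, number 74, lies 576 bp from it, with 40.7 in replicate 1 and 24.1 in replicate 2. Both replicates thus gave the pair the same order. Peak 4 had 232 in replicate 1 and 175 in replicate 2, at chrX:6296343-6296777 in an intron of mom-1, which codes for a Porcupine-type enzyme needed to secrete Wnt ligands. Peak 7 had 203 and 146 in replicates 1 and 2 (chrX:16681976-16682243, 2564 bp from F22H10.2). Peak 8 had 204 and 131 (chrX:806585-806803, 3901 bp from gtr-1). Each of these sites was higher in replicate 1 than in replicate 2.

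Peak 12 is the core-bearing peak nearest a gene of sex determination. It lies 4880 bp upstream of the start of xol-1, the switch gene that sets male fate and holds dosage compensation off when its product is high. It had 155 in replicate 1 and 146 in replicate 2 (chrX:8036213-8036671, signal 295). A tRNA gene for arginine, C18A11.t2, lies 252 bp from its summit. This is the only peak of the 15 with a tRNA gene within 500 bp, against 49 of all 238 (20.6%). The same interval is listed once more with a summit 203 bp away, as peak 138, whose own signal was 41.1 and whose window holds no core.

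Peak 11 had 190.3 in replicate 1 and 113 in replicate 2, in an intron of Y41G9A.17 (chrX:2996904-2997316, signal 297). That interval is also listed a second time, as peak 194, with a signal of 33.9 at a summit 201 bp away, and this window holds a core of its own. Peak 14 was the only core-bearing peak in an exon, in coding sequence of pks-1, a polyketide synthase gene (chrX:5429437-5429622). It had 172 in replicate 1 and 116 in replicate 2. Its summit is 15192 bp from the nearest coding start, that of C41A3.2, the largest such distance among the 238.

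The other core-bearing peaks were weaker and still ran high to low across the ranks. Peak 19 had 89.95 in replicate 1 and 51.0 in replicate 2, 1052 bp downstream of T24D8.6. Peak 22 had 87.6 and 42.3, 3506 bp upstream of the collagen gene col-185. Peak 44 had 54.9 and 32.2, near B0302.2. Peak 52 had 53.0 and 33.4, 6293 bp from dpy-23, which codes for a subunit of the clathrin adaptor AP2. The last, peak 237, had 20.2 and 6.62 near sedl-1 and was among the weakest of all 238, with a signal of 28.5. A copy of the core was thus found at the top and at the bottom of the range.

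Peaks with the core had a median signal of 269, against 43.3 for the 223 without it. In replicate 1 the medians were 172 with and 27.2 without the core, and in replicate 2 they were 113 with and 19.9 without. The peaks with the core ranged from 28.5 to 522 and those without it from 28.5 to 569, so the sets overlap over nearly the whole range. Peak 194 takes the replicate values of peak 11 here, because the strongest overlapping peak of each replicate list was used. Of the core-bearing peaks 11 were intergenic, 3 intronic and 1 exonic, and their median distance to a coding start was 2940 bp, against 2456 bp for peaks without the core. Median GC content of the summit windows was 39.5% with the core and 46.0% without it. No window held both the core and an AP-1 element.

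**Figure D2:**
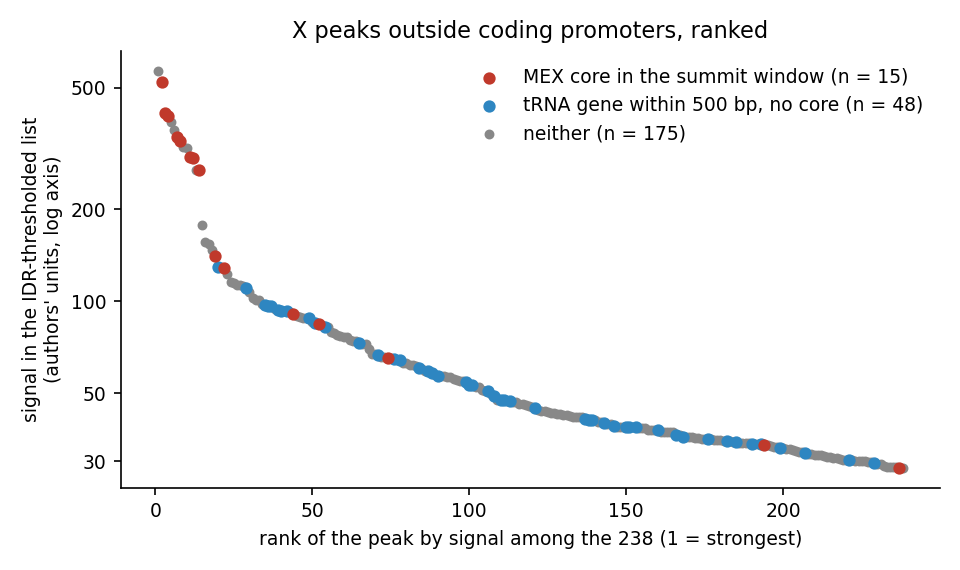
Signal of each of the 238 X peaks outside coding promoters in the IDR-thresholded list (vertical log axis) against its rank (horizontal axis). Red points hold the MEX core in the summit window, blue points have a tRNA gene within 500 bp and no core, grey points have neither; the first 14 peaks lie at 269 or above and peak 15 lies at 178.

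The share of windows with the core differed between sets of peaks. It was 15 of 238 X peaks outside promoters (6.30%, interval 3.86% to 10.1%), 3 of 212 X promoter peaks (1.42%, 0.482% to 4.08%), 0 of 789 autosomal peaks outside promoters, which allows a share of up to 0.380% (3 counts of the total), and 1 of 1066 autosomal promoter peaks (0.0938%). Over all 2305 summit windows it was 19 (0.824%). In windows of the same length 500 bp to each side of the 238 summits the core was in 3 of 476 (0.630%). Peaks 3 and 74, with summits 576 bp apart, each have the core copy of the other in a flanking window. The flanking share thus includes copies already counted at the summits. The X promoter peaks with the core were also strong in both replicates at 2 of 3 sites. The one 724 bp upstream of nspc-17 had 225 and 139 in replicates 1 and 2, the one 618 bp upstream of ins-39, an insulin-like gene, had 189 and 106, and the one at R04E5.9 had 54.7 and 43.4. The autosomal one, at sma-2 on chromosome III, had 21.1 and 15.3.

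Most copies of the core in the genome were not in a peak of the IDR-thresholded list. X held 81 copies (4.57 per Mb) and the autosomes 233 (2.82 per Mb). On X 26 of the 81 (32.1%) lay inside an IDR-thresholded peak and 37 (45.7%) inside a peak of the pooled list. On the autosomes 3 of 233 (1.29%) lay inside an IDR-thresholded peak and 20 (8.58%) inside a pooled one.

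The strongest 14 peaks stood apart from the rest by a gap in signal, from 269 at peak 14 to 178 at peak 15. This grouping was chosen after its values were seen. All 14 had the signal of replicate 1 at 0.991 to 1.68 times that of replicate 2, and they were among the strongest 36 peaks of replicate 1 and the strongest 32 of replicate 2. Of these 14 peaks 8 held the core, and for the other 6 a best match to it in the window is shown, with the matched stretch in capitals. Peaks 6 and 10 had 2 equally good matches each, peak 9 had 5 and peak 13 had 4, and the one with the lowest coordinate is shown. Differences from the core are counted from 1 at its 5′ end, with the base of the core first.
Peak 1, chrX:13700888-13700927, minus strand: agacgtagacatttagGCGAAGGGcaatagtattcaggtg
Peak 5, chrX:9465867-9465906, plus strand: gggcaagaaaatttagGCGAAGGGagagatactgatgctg
Peak 6, chrX:11937441-11937480, minus strand: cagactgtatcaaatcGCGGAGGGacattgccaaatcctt
Peak 9, chrX:12363131-12363170, plus strand: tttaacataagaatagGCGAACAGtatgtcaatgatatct
Peak 10, chrX:16056517-16056556, minus strand: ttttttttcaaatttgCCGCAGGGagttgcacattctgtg
Peak 13, chrX:16929667-16929706, minus strand: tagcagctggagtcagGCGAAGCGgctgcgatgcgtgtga

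Peak 1 had 339 in replicate 1 and 230.1 in replicate 2, the highest value of either list. It lies at chrX:13700651-13701029, 6045 bp upstream of K02D3.1, and its match carries C4A. Peak 5 also carries C4A, and it had 238 and 155 in replicates 1 and 2, 2520 bp from ZK899.6. The letters just before the matched stretch are the same at both. The match shown for peak 6 carries C4G and had 228 and 142 near F55G7.5, and that of peak 10 carries G1C, with 183 and 140.2 near T27A8.7. Those 4 peaks therefore matched 7 of the 8 letters. Peak 9 matched only 5 letters (C4A, G6C and G7A in the match shown), with 189 and 130.4 near F19H6.5. Peak 13 matched 6 (C4A and G7C in the match shown), with 134 and 135 near C30E1.4.

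A match to 7 or more of the 8 letters was found in the other sets of peaks too. It was in 46 of the 238 windows (19.3%), in 29 X promoter windows (13.7%), in 74 windows of autosomal peaks outside promoters (9.38%) and in 100 of autosomal promoter peaks (9.38%). The whole summit window of peak 1 is given because it is the strongest site of the list, on the plus strand at chrX:13700762-13700961. None of the 7 motifs searched in all windows was found in it.
Peak 1, chrX:13700762-13700961, plus strand: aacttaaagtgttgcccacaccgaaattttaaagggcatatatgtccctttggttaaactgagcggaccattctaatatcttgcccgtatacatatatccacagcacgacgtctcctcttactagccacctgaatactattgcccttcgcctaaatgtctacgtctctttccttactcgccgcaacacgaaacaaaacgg

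Width separated the same peaks. The list gives most peaks a width of 344 bp. Of the 238 peaks 19 (7.98%) had another width, between 114 and 459 bp. Such a width was found at 12 of 789 autosomal peaks outside promoters (1.52%) and 6 of 212 X promoter peaks (2.83%). It was found at 51 of 1066 autosomal promoter peaks (4.78%) and at 88 of all 2305 peaks (3.82%). The 19 had a median signal of 317 and the other 219 a median of 43.0. Peaks of another width had the higher median signal in each of the other sets too. All of the strongest 14 were among the 19, as were 10 of the 15 peaks with the core. The 19 include peaks 138 and 194, which repeat the intervals of peaks 12 and 11, and the 10 include peak 194. How the authors' caller sets the width is not given in the sources used here.

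Over all 238 peaks the signal was spread more widely upward than at autosomal peaks outside promoters and much like that of autosomal promoter peaks. The X peaks outside promoters ran from 28.5 to 569 with a median of 45.2 and quartiles of 35.3 and 76.4. The X promoter peaks had a median of 43.4 and reached 393, and the autosomal peaks outside promoters had a median of 41.4, an upper quartile of 59.0 and a maximum of 301. The autosomal promoter peaks had a median of 46.9, above that of the X peaks outside promoters, an upper quartile of 73.1 and a maximum of 455. In replicate 1 the medians were 27.96 for the X peaks outside promoters, 25.3 for X promoter peaks and 24.97 for autosomal peaks outside promoters. In replicate 2 they were 22.2, 20.4 and 18.5 in the same order. The median of the X peaks outside promoters was thus above that of the autosomal peaks outside promoters in the list and in both replicates, by 3.83, 2.99 and 3.69 signal units.

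The difference of medians was smaller without the core-bearing peaks. Leaving out those 15, an alternative chosen after seeing the data, gave 1.92 in place of 3.83. Most of the 15 lay above the median of the 238, so leaving them out lowers that median by construction. No autosomal peak outside promoters held the core, so none was left out on that side. At the upper quartile the difference was 17.4 in the list, 10.3 in replicate 1 and 7.27 in replicate 2. Signals above 100 were found at 33 of the 238 X peaks outside promoters (13.9%), 28 X promoter peaks (13.2%), 58 autosomal peaks outside promoters (7.35%) and 148 of 1066 autosomal promoter peaks (13.9%), and at 267 of all 2305 (11.6%). The share was thus close to that of both sets of promoter peaks. Of the 10 strongest peaks of the whole list 6 were X peaks outside promoters, of the strongest 50 there were 14, and of the strongest 500 there were 64 (12.8%), close to their 10.3% of the list.

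The X peaks outside promoters were present in both libraries. All 238 were overlapped by at least 1 bp by a peak of each replicate list, as were 211 of 212 X promoter peaks and 783 of 789 autosomal peaks outside promoters. A stricter count took only the 2305 strongest peaks of each replicate list. By that count 178 of the X peaks outside promoters (74.8%) were overlapped in both. So were 146 X promoter peaks (68.9%), 513 autosomal peaks outside promoters (65.0%) and 782 autosomal promoter peaks (73.4%). Over the whole list it was 1619 peaks (70.2%). The share of the X peaks outside promoters was thus close to that of autosomal promoter peaks. The median X peak outside promoters stood in the top 3.75% of the list of replicate 1 and in the top 3.14% of that of replicate 2. The same values were 3.76% and 3.73% for autosomal promoter peaks, and 4.07% and 3.88% for all peaks. The thresholded list was itself made from the replicates, so presence in both is in part what selected these peaks.

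Replicate 1 gave the higher value at 196 of the 238 peaks and replicate 2 at 42. Over the whole list replicate 1 was higher at 1838 peaks and replicate 2 at 455. At the 238 peaks the median ratio of replicate 1 to replicate 2 was 1.40, or 0.49 on the log2 scale (SD over peaks 0.64). The log2 median was 0.39 at autosomal peaks outside promoters, 0.51 at autosomal promoter peaks and 0.46 over the whole list. Across the 238 peaks the signals of the replicates had a Spearman rho of 0.719 and, on the log scale, a Pearson r of 0.814. The rho was 0.517 across 783 autosomal peaks outside promoters, 0.624 for X promoter peaks, 0.655 for autosomal promoter peaks and 0.616 for all peaks. These are descriptions across sites of 1 pair of libraries that share a control, and peaks are not replicates. A correlation across peaks also depends on how widely their signals range. Upper quartiles were 76.4 for the 238 and 59.0 for autosomal peaks outside promoters, with maxima of 569 and 301. The 238 took their replicate 1 values from 233 distinct peaks. The rho values therefore do not rank the sets by reproducibility. The signal of the IDR-thresholded list was close to the sum of both replicates, with a median quotient of 0.999.

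**Figure D3:**
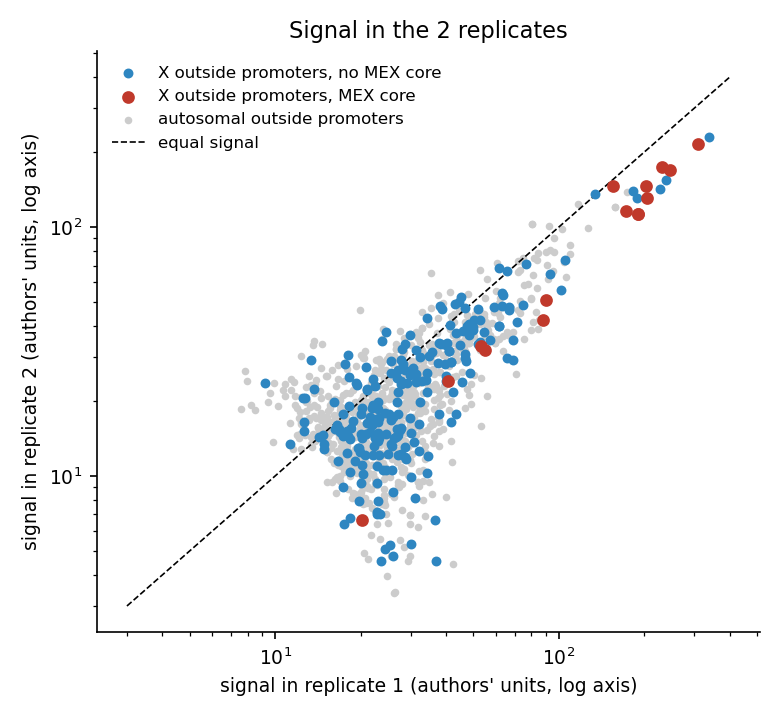
Signal of each peak in replicate 1 (horizontal log axis) against replicate 2 (vertical log axis), taken from the strongest overlapping peak of each replicate list. Blue and red points are the 238 X peaks outside promoters without and with the MEX core, grey points are autosomal peaks outside promoters, and the dashed line marks equal signal; 196 of the 238 lie below it, and the highest points plotted are X peaks.

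A few peaks differed much more between the libraries. The largest excess in replicate 1 was at chrX:1880698-1881041, 11317 bp upstream of B0294.3, with 36.9 in replicate 1 and 4.55 in replicate 2. The next were a site near M163.1 with 30.03 and 5.34, and a site upstream of rsd-3 with 36.7 and 6.67. In the other direction a site 7883 bp upstream of W05H9.4 had 9.20 in replicate 1 and 23.7 in replicate 2. An intronic site of nhr-17 had 13.3 and 29.3, and an intronic site of kin-20 had 18.1 and 30.5. All 6 had list signals under 45, so none of them is among the strong peaks.

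Position relative to genes was mostly intergenic. Of the 238 summits 149 lay between protein-coding genes (62.6%, interval 56.3% to 68.5%), against 50.7% of autosomal summits outside promoters (47.2% to 54.2%). Introns held 79 (33.2%), against 42.5% of the autosomal summits, and exons held 10 (4.20%), against 6.84%. The median signal was 47.7 for intergenic, 41.97 for intronic and 37.8 for exonic X peaks. The plot of locations also shows the X promoter peaks, whose intergenic share is set largely by the promoter rule and is no finding.

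The nearest coding start was a median of 2539 bp away, with quartiles of 1540 and 4177 bp, and 40 peaks were more than 5 kb from any. Autosomal peaks outside promoters had a median of 2418 bp. The nearest start was downstream of the summit for 113 peaks and upstream of it for 125. Peaks just inside the rule's window lay 5 bp from its edge at egl-17, a fibroblast growth factor gene (signal 44.1), 8 bp at mgrn-1 (62.6) and 9 bp at tsp-21 (81.8). Just outside it were peaks 86 bp beyond the edge at pqn-39 (42.7), 103 bp at C35B8.3 (33.1) and 135 bp at sur-5 (34.8).

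**Figure D4:**
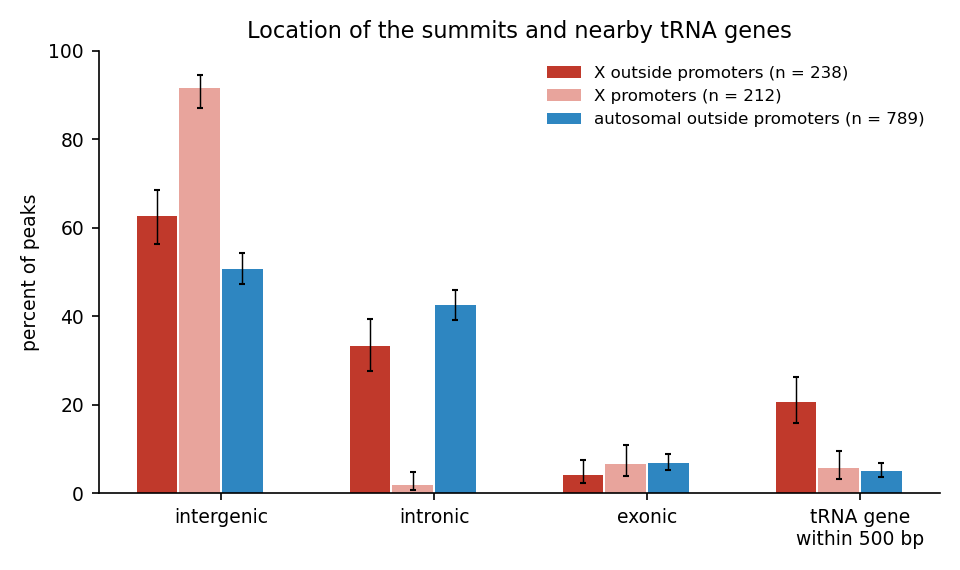
Percent of peaks (vertical axis) whose summit was intergenic, intronic or exonic, and percent with a tRNA gene within 500 bp of the summit, for the 238 X peaks outside promoters, the 212 X promoter peaks and the 789 autosomal peaks outside promoters. Error bars are 95% Wilson intervals, which cover counting error only; tRNA genes were near 20.6% of the X peaks outside promoters.

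Intronic peaks were spread over many genes. The 79 summits lay in 66 host genes, 40 in a first intron, 8 in a second and 31 in a later one. Here and below, the intron number is the lowest among all transcripts of the host gene, which favours first introns. The median length of the intron was 1891 bp. The strongest after those of mom-1 and Y41G9A.17 was in F09A5.3 (chrX:13145243-13145586), with 93.1 in replicate 1 and 65.03 in replicate 2. Of the exonic summits 5 lay in coding sequence, 3 in a 5′ UTR and 2 in a 3′ UTR. After pks-1 the strongest exonic ones were at endu-2 and kqt-2, with 22.0 in replicate 1 and 24.6 in replicate 2, and at R07A4.4, with 21.96 and 18.8. The promoter rule used 1 start per gene. When the starts of every coding transcript were used, 27 of the 238 (11.3%) fell in a promoter window, of which 24 were intronic and 3 exonic.

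Among the named classes of non-coding RNA, tRNA genes were the one most often found beside these peaks. A tRNA gene lay within 500 bp of 49 of the 238 summits (20.6%, interval 15.9% to 26.2%), and the summit was inside the gene in 27. The shares were 5.66% for X promoter peaks and 5.07% for autosomal peaks outside promoters (3.74% to 6.83%). X carries 276 annotated tRNA genes and the 5 autosomes 336, while X makes up only 17.7% of the genome. Such genes are thus much denser on X, and the difference in share stands beside that difference in density. Counted by gene, 62 of the 276 X tRNA genes (22.5%) had such an X peak within 500 bp, against 43 of 336 autosomal tRNA genes (12.8%) with an autosomal peak outside promoters.

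Of the 49 peaks at tRNA genes 1, peak 12, was among the strongest 14, and no other of them was above 129. Those with a tRNA gene had a median signal of 48.96, against 43.8 for the rest, with 31.0 against 27.8 in replicate 1 and 23.4 against 22.2 in replicate 2. The strongest after peak 12 was peak 20, 216 bp from R04A9.t1, a tRNA gene for glutamine, with 61.3 in replicate 1 and 68.6 in replicate 2. Peak 29 lay 35 bp from M02F4.t1, for glycine, with 63.0 and 48.2. The nearest tRNA genes coded for 18 amino acid types, led by arginine with 7 peaks, glycine with 5 and proline and serine with 4 each. X carries 27 tRNA genes for arginine, 20 each for glycine and proline and 18 for serine, so these are also types with many genes, while tyrosine had 3 peaks for 8 genes. None of the 49 windows held the AP-1 element, which was in 7.14% of the 238, and 1 held the MEX core, which was in 6.30%. tRNA genes of one kind can be near-identical in sequence, and how the authors treated reads that map to several places is not given in the sources used here.

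Genes annotated only as ncRNA, without a class, lay within 500 bp of 75 of the 238 peaks (31.5%), against 20.8% of X promoter peaks and 21.5% of autosomal peaks outside promoters. X carries 2520 such genes and the 5 autosomes, which are together several times as long, 5244. The strongest of the 75 were peaks 12, 13 and 16. Named classes other than tRNA were rare. miRNA genes lay within 500 bp of 6 peaks (2.52%), against 1.90% of autosomal peaks outside promoters. The strongest was peak 16, the intronic peak of F09A5.3 described above, 321 bp from mir-54. Next were 2 peaks at mir-239b and mir-239a, miRNA genes that neighbour each other, with 37.7 and 36.7 in replicate 1 and 34.2 and 6.67 in replicate 2. The second of these was also the only one of the 238 near a snoRNA gene, a class that was near 6.46% of autosomal peaks outside promoters. X carries 33 snoRNA genes and the autosomes 313. A single snRNA gene was near 1 peak (0.420%), with 32.2 in replicate 1 and 12.6 in replicate 2, against 0.760% of autosomal peaks outside promoters. lincRNA genes, piRNA genes and pseudogenes were each near 2 (0.840%), against 1.39%, 4.56% and 2.66% of those autosomal peaks. X carries 3 snRNA genes, 38 lincRNA genes, 162 piRNA genes and 178 pseudogenes. The autosomes carry 126, 156, 15201 and 1950, so few such genes were there to be near. The lincRNA peak in an intron of scd-1 had 28.8 and 11.9.

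The AP-1 element was not the commonest motif of these peaks. TGACTCA was sought on both strands, as were the cAMP response element TGACGTCA, the E-box CACGTG, the words CTGCGTCTC and GAGAGAGA and the GATA word TGATAA. A match says only that the letters are in the window, and copies of different motifs overlapped in 1 of the 238 windows. TGACTCA was in 17 of 238 windows (7.14%, interval 4.51% to 11.1%), against 4.25% of X promoter windows, 5.07% of autosomal windows outside promoters and 4.90% of all 2305 windows. In the windows 500 bp beside the 238 summits it was in 2.10%. The strongest 5 peaks with it, both peaks with TGACGTCA and the strongest 3 with CACGTG are shown with 16 bases to each side and the motif in capitals.
Peak 17 with TGACTCA, chrX:7181829-7181867, minus strand: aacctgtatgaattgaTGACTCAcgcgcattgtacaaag
Peak 23 with TGACTCA, chrX:14708438-14708476, plus strand: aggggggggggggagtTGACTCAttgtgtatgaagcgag
Peak 46 with TGACTCA, chrX:728042-728080, minus strand: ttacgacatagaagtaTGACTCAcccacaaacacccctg
Peak 64 with TGACTCA, chrX:16930959-16930997, plus strand: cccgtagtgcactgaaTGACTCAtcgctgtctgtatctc
Peak 68 with TGACTCA, chrX:11791640-11791678, minus strand: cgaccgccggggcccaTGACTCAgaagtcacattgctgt
Peak 63 with TGACGTCA, chrX:12872532-12872571, plus strand: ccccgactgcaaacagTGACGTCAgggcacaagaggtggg
Peak 196 with TGACGTCA, chrX:17146723-17146762, plus strand: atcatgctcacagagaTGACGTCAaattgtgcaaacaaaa
Peak 16 with CACGTG, chrX:13145346-13145383, plus strand: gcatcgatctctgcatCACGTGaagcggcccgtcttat
Peak 26 with CACGTG, chrX:6750263-6750300, plus strand: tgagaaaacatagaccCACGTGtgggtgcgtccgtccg
Peak 41 with CACGTG, chrX:14813504-14813541, plus strand: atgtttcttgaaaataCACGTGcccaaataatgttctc

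The strongest AP-1 peak, number 17, had 102 in replicate 1 and 55.97 in replicate 2, at chrX:7181723-7181914, 4177 bp from F43E12.1. Peak 23, upstream of tmem-184, had 75.04 and 48.8. Peak 46, 2006 bp upstream of sli-1, a Cbl-type ubiquitin ligase gene, had 47.5 and 40.1. None of the strongest 14 held the element, but at its share of 7.14% few of 14 peaks would hold it. The 17 peaks with it had a median signal of 45.4, against 45.1 for the 221 without, with 30.6 against 27.9 in replicate 1 and 17.7 against 22.3 in replicate 2. The TGACGTCA peaks were those near bcat-1, a branched-chain amino acid aminotransferase gene, with 40.1 and 33.7, and near T23C6.4, with 23.0 and 13.8.

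The E-box was in 29 windows (12.2%, interval 8.62% to 17.0%), against 5.66% of X promoter windows, 10.1% of autosomal windows outside promoters and 7.90% of all windows. Beside the summits it was in 2.73%. CTGCGTCTC was in 21 windows (8.82%, 5.84% to 13.1%) and GAGAGAGA in 25 (10.5%, 7.22% to 15.05%). Both were less frequent than in autosomal windows outside promoters, where CTGCGTCTC was in 20.03% (17.4% to 22.96%) and GAGAGAGA in 21.5% (18.8% to 24.5%). For both words the intervals of these 2 sets do not overlap, which is a description over sites of 1 pair of libraries and not a test. Promoter windows held GAGAGAGA in 8.02% on X and 9.01% on the autosomes, both within the interval of the 238. CTGCGTCTC was in 10.8% of X promoter windows and 14.1% of autosomal promoter windows. Over all windows the shares were 15.3% for CTGCGTCTC and 13.4% for GAGAGAGA. Among the 238, peaks with CTGCGTCTC had a median signal of 79.3, against 43.3 without it. In replicate 1 these medians were 43.3 and 27.2, and in replicate 2 they were 38.5 and 19.9. The list medians with and without GAGAGAGA were 56.6 and 43.8, and with and without the E-box they were 51.5 and 44.1. TGATAA was in 21.8% of the X windows and in 19.5% of the windows beside them, so its share at the summits was close to that of the flanks. The median signal was 37.5 with TGATAA and 49.9 without it. Leaving TGATAA aside, 140 of the 238 windows held none of the motifs, 89 held 1 kind and 9 held more.

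**Figure D5:**
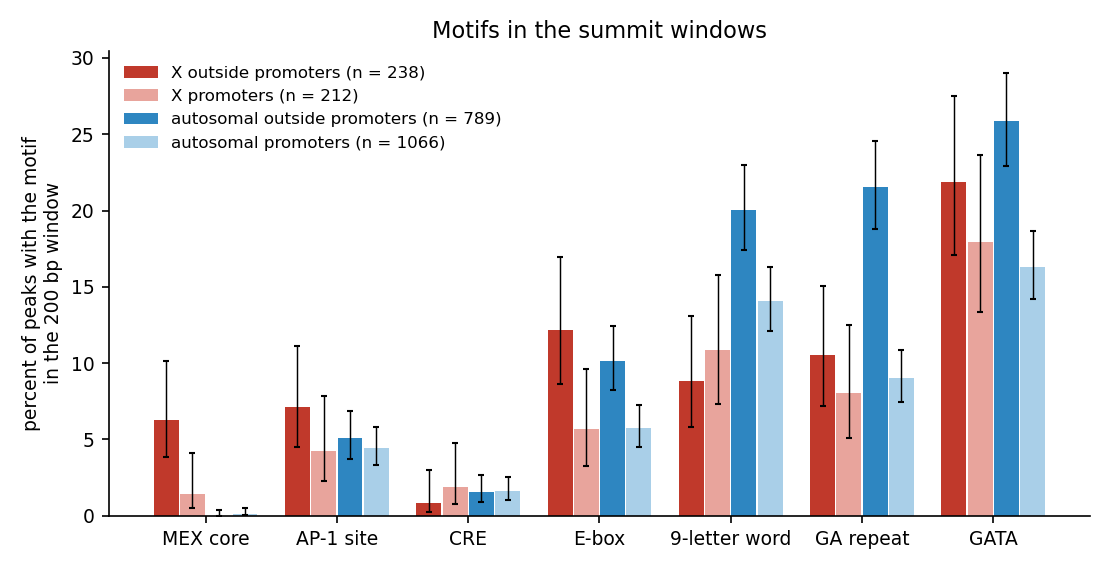
Percent of peaks (vertical axis) with each motif within 100 bp of the summit, for X peaks outside promoters, X promoter peaks, autosomal peaks outside promoters and autosomal promoter peaks. Error bars are 95% Wilson intervals, or for a count of 0 the limit of 3 counts, and cover counting error only; the MEX core was in 6.30% of X peaks outside promoters and in 0 of 789 autosomal peaks outside promoters.

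The peaks were spread over the whole chromosome. Their density was 13.4 per Mb of X, against 9.56 per Mb for autosomal peaks outside promoters, which ran from 7.26 per Mb on chromosome V to 12.4 on chromosome III. X makes up 17.7% of the genome and held 19.5% of all IDR-thresholded peaks and 20.7% of the pooled list. It carries 2731 of the 19973 coding genes, so coding starts are sparser on it and more of it lies outside promoter windows. The part of this in the density was not tested. Each Mb of X held between 6 and 24 of them. The median distance between neighbouring summits was 40608 bp, and the longest stretch without one was 663867 bp. On the autosomes the median distance ran from 52691.5 to 82118 bp. Of the 238 peaks 53 (22.3%) had another within 2 kb, against 11.1% to 21.1% by autosome. The highest autosomal share, close to that of X, was on chromosome III, whose density was also the closest to that of X. Peaks within 2 kb of each other formed 20 pairs, 3 groups of 3 and 1 group of 4.

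The group of 4 spans 2559 bp, upstream of Y102F5A.1 and of rsd-3, a gene needed for systemic RNA interference. Its signals in replicate 1 were 19.7, 37.7, 36.7 and 25.4 along the chromosome, and in replicate 2 they were 7.92, 34.2, 6.67 and 5.27. The second of the 4 was thus the strongest in replicate 2 by a wide margin, and close to the third in replicate 1. Some members of such groups overlap in sequence, since 238 summits lie in 236 distinct intervals and 5 neighbouring pairs, with summits 201 to 209 bp apart, overlap.

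Among the nearest coding genes 2 had 4 peaks each, kin-20 and mdl-1, and 8 had 3 each, sma-9, R11.4, C34D10.5, rsd-3, W05H9.4, mxl-3, F43C9.1 and ZK470.4. The gene kin-20, a casein kinase I of the heterochronic timing pathway, was the nearest coding gene of 4 peaks over 5338 bp, 3 of them in its first intron. The strongest of these had 62.8 in replicate 1 and 54.5 in replicate 2. Its other intronic peaks had 27.9 and 18.1 in replicate 1, and 24.1 and 30.5 in replicate 2. The E-box CACGTG was in 0 of its 4 windows. mdl-1, which codes for a Mad-like factor of the Myc/Max/Mad network, was nearest to 4 peaks over 7290 bp, and 3 of their windows held the E-box. mxl-3, which codes for a Max-like factor, was nearest to 3 peaks 2866 to 5851 bp upstream, with 27.1, 32.5 and 24.5 in replicate 1 and 26.6, 29.95 and 37.8 in replicate 2. Of these 1 window held the E-box. The 3 mxl-3 peaks were close in signal to each other. The 3 peaks whose nearest start was that of C34D10.5 lay in unk-1, an Unkempt-type zinc finger gene, where 41.4, 25.5 and 26.1 were measured in replicate 1 and 40.6, 25.97 and 8.62 in replicate 2. mdl-1 was chosen for description after its values were seen. In all, the 238 peaks had 193 nearest genes, 160 of them with a single peak.

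Nuclear hormone receptors are ligand-regulated transcription factors of which the worm has very many. Of the 23 X-linked coding genes with an nhr symbol 8 were nearest to a peak, nhr-3, nhr-14, nhr-17, nhr-28, nhr-35, nhr-40, nhr-45 and nhr-48, beside 193 of all 2731 X-linked coding genes. Receptor genes with other symbols are not in that count, and of these daf-12 (signal 62.9) and odr-7 (36.6) were nearest to 1 peak each, named here after their values were seen. The 8 genes had 10 peaks, of which 2 at nhr-17 are overlapping intervals with summits 209 bp apart. The strongest was in an intron of nhr-3, with 65.9 in replicate 1 and 66.6 in replicate 2. Those at nhr-14 had 20.3 and 32.3 in replicate 1, and 18.8 and 19.9 in replicate 2. Of 7 X-linked genes of dosage compensation and sex determination looked up by symbol, xol-1 alone was nearest to a peak, with the 2 summits given above. Counts for homeobox, neuropeptide, and ion channel and transmitter receptor genes were also planned and are not reported here. The nuclear receptor count therefore stands without those families beside it.

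The thresholded list keeps only the upper end of the sites called on X. The list called on both replicates together held 3002 X peaks outside promoters, and 270 of them (8.99%, interval 8.02% to 10.1%) were overlapped by an IDR-thresholded peak. Over that whole list the share was 12.7% (2486 of 19646). It was 21.2% for X promoter peaks and 8.49% for autosomal peaks outside promoters, so the X share was close to that of autosomal sites of the same kind. When at least 50% of the pooled peak had to be covered, the X share was 7.93%, or 238 peaks. The strongest X site outside promoters that was not kept had a signal of 28.34, just under the weakest peak of the thresholded list at 28.39. By this value the 238 are the strongest of the 3002.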

How the data were processed

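JUN-1 ChIP-seq peak lists of 2 replicates of L1 larvae were used on ce11. The authors deposited, per peak, a signal and a −log10 q-value, and the signal was used only to describe and rank peaks. Which caller, IDR cutoff and scaling the authors used is not given in the sources used here. Per the deposited provenance notes, IDR thresholding took the replicate lists and 1 called on both replicates as input. Genes came from Ensembl release 115 and sequence from the RefSeq copy of WBcel235.

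Python 3.11.15 with pandas 2.3.3, numpy 2.4.6 and scipy 1.17.1 assigned summits to promoter windows (1000 bp upstream to 200 bp downstream of 19973 coding gene starts), exons, introns or intergenic sequence. A replicate value is that of the strongest replicate peak overlapping by at least 1 bp. The nearest summit instead gave another value for 8 peaks in replicate 1 and 11 in replicate 2. Motifs were sought in 200 bp windows. A floor for a count of 0 is 3 counts of the total. The steps were tested on simulated data. The peaks, motifs and gene lists were chosen with earlier results of these data known. Named peaks are the strongest 12, the strongest 3 of each location and each non-coding RNA class, those with the MEX core, the strongest 5 with TGACTCA or TGACGTCA, the 3 with the largest replicate difference each way, the 3 farthest from a coding start, those at the edge of the rule, and the tightest groups. Alternatives changed the promoter window, starts, peaks, overlap, distance, motif window and replicates.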

Additional observations from a re-analysis of the deposited data

How the results depend on the processing

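Of the values that answer a question of the design, 40 of 64 recomputed ones stayed within a limit set around the main value. The limit was a fold change for counts, the Wilson interval for shares, and the spread between replicates for the others. Only the difference of medians could have changed direction, and it stayed positive. Counts of X peaks outside promoters ran from 194 to 292 over promoter windows and starts, and there were 121 in the stronger 50% of the list. The intergenic share was 56.2% with the wider window (2000 bp upstream to 500 bp downstream), 70.6% with the starts of every coding transcript and 68.6% in the stronger 50%. The median signal was 76.3 in the stronger 50%, and 20.4 to 27.1 in the lists of 1 replicate, whose scale differs. The difference of medians from autosomal peaks outside promoters was 1.49 with the narrower window (500 to 100 bp), 7.20 with the wider one and 5.63 with every transcript start. It was 13.0 in the stronger 50%, 1.73 to 2.10 without 1 replicate, 1.92 without peaks holding the MEX core and 1.62 without the strongest 14. The strongest 14 were chosen on the signal itself, and most core-bearing peaks were above the median, so both choices lower this median by construction. Median spacing was 30109 bp with the narrower and 43970 bp with the wider window, 76761 bp in the stronger 50% and 36474 to 38963 bp without 1 replicate. The MEX core was in 10.7% of the stronger 50%. TGACTCA was in 3.78% of 100 bp windows. Overlap of at least 50% of the peak in both replicates held for 98.3% of peaks, and 74.8% overlapped the strongest peaks of each list. With at least 50% of the pooled peak covered, 7.93% of pooled X peaks were kept. On ce10 100% of the 450 X peaks had signals within 0.1 of those on ce11 on the log2 scale. The causes of the other changes were not tested. No paired analysis was possible because there is 1 group. The unknown depth of the libraries limits every value, and none of them was tested against a second condition.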

Other observations

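The following X peaks outside promoters were chosen for mention after their values were seen, and they say nothing about which kinds of gene lay beside the peaks in general. pdk-1, a kinase gene of the insulin pathway, had a peak in its second intron with 63.4 in replicate 1 and 53.2 in replicate 2, and another 1417 bp upstream with 45.5 in replicate 1 and 23.9 in replicate 2. The windows of both held CTGCGTCTC. aak-2, which codes for a catalytic subunit of the energy sensor AMPK, had a peak in its first intron with 34.4 in replicate 1 and 43.1 in replicate 2, and the window held CTGCGTCTC and the E-box. The peak 1827 bp upstream of sid-3, a tyrosine kinase gene needed for import of double-stranded RNA, had 49.6 in replicate 1 and 38.5 in replicate 2, and its window held CTGCGTCTC, GAGAGAGA and the E-box.

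The site 1152 bp upstream of nfki-1, an IκB-type gene, had 66.9 in replicate 1 and 46.6 in replicate 2. A site 4700 bp upstream of egrh-1, an EGR-type zinc finger gene, had 45.4 in replicate 1 and 52.2 in replicate 2. sma-9, a Schnurri-type gene of the TGF-beta pathway, was nearest to 3 peaks. The strongest, 2944 bp upstream, had 76.5 in replicate 1 and 71.2 in replicate 2, and both others lay in its first intron. The E-box was in 0 of these 3 windows.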
